A study of Oryctolagus cuniculus with 57 samples.

Results

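The genes described here encode chemokines that attract T cells and other lymphocytes, and receptors for such chemokines. They are the CXCR3 ligands CXCL9, CXCL10 and CXCL11, the CC chemokines CCL4 and CCL5, the receptors CXCR3, CXCR6, CCR9 and XCR1, and CCL25, the ligand of CCR9. They were chosen by name, with earlier results of these data known, and a gene was kept when an array probe could be matched to its symbol. Of these 10 genes, 7 had a probe that passed the filter on dim signals, out of 8020 genes tested in all. CCR9 had 1 probe, which was well above background in 3 of 56 rabbits and was not tested. No probe was matched to CXCR3 or CCL25, which were not analysed here.

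The samples were ileum of young rabbits (Oryctolagus cuniculus, commercial hybrids, male or female), hybridised one rabbit per array to single-colour Agilent arrays. In all groups the feces of the mother were taken out of the nest in early life. In the FFab group they were replaced by feces of unrelated does treated with the antibiotics tetracycline and tiamulin, in the FF group by feces of unrelated does given no antibiotics, and the NF group received no feces. Rabbits were taken at 49 days of age (FFab n = 9, FF n = 9, NF n = 9) or at 35 days, the day of weaning (FFab n = 10, FF n = 10, NF n = 9 after the removal of 1 array). Different rabbits were sampled at each age, and they are called here by the number in their label (lap102). Feces were offered by nest and the labels give no litter, so p-values are too small if littermates were sampled. The study asked how eating feces in early life affects ileal gene expression around weaning.

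Chemokines bind receptors on leukocytes and guide them into and within a tissue. CXCL9, CXCL10 and CXCL11 are classical targets of interferon gamma and draw activated T cells and NK cells through CXCR3. CCL5 and CCL4 are made by activated T cells, NK cells and macrophages. CXCR6 marks effector and tissue-resident lymphocytes, XCR1 marks the dendritic cells that present antigen to CD8+ T cells, and CCR9 with CCL25 directs lymphocytes to the small intestine.

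The probe sequences are shown because each level below rests on them. All are 60 bases long and are written 5′ to 3′. Coordinates are those of the files (oryCun2 assembly), which give none for CXCL11. No annotation of that assembly was used, so their exons are not named. CXCL10 was read by 5 tiled probes between chr15:74369722-74370561 on the plus strand. The capitals mark the bases that a probe shares with the one before it, so that these probes are not independent measurements.
CXCL10 probe 1: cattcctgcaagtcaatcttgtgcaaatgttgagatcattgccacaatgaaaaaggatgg
CXCL10 probe 2: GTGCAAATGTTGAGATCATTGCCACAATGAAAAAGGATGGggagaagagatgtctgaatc
CXCL10 probe 3: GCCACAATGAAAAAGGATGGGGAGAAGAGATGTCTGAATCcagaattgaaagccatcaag
CXCL10 probe 4: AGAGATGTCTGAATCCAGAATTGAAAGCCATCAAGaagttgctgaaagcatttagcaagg
CXCL10 probe 5: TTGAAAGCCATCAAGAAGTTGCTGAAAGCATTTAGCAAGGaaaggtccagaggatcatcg
Probe 5, the probe of median brightness, gave the values of CXCL10. Probes 1 and 2 each lie over a 288-base stretch and probe 5 over 527 bases, so their matches to the genome are split.

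CXCL9 (chr15:74397684-74397734, plus strand) lies 27.12 kb from the CXCL10 probes, and its coordinates span 51 bases, fewer than the probe has. CCL5 (chr19:24923985-24924044, minus strand) ends at a stop codon in the reading frame of its first base, shown in capitals. CXCR6 (chr9:14295176-14295235, plus strand) and XCR1 (chr9:14349179-14349238, minus strand) lie 53.94 kb apart, and the CCR9 probe is 45.22 kb from that of CXCR6.
CXCL9: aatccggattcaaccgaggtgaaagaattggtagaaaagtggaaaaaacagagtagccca
CXCL11: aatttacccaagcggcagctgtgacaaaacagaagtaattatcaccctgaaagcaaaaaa
CCL5: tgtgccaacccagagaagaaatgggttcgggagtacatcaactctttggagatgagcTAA
CXCR6: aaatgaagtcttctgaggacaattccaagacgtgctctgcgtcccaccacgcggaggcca
XCR1: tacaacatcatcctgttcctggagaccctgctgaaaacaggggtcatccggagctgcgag
The longest run of bases common to any pair of the probes used, CCL4 included, was 9 bases, between CXCL10 and CXCL11. CCL4 was read by 5 probes that share 55 bases within a 65-base window (chr19:25045560-25045624), 121.5 kb from CCL5.

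The symbols of CXCL10, CCL4, CCL5 and XCR1 come from identifiers in the array files. Those of CXCL9, CXCL11 and CXCR6 come only from the study's own lists of genes that changed with age, over the treatments or in FF. These 3 genes could therefore be found only because they had passed a test on the same rabbits, and their age changes are not independent evidence. Of all genes named only in this way, 50 (49.0%) were called as higher at day 49 in FF, against 176 of the other 7918 genes (2.22%).

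On each array 68.2 to 85.7% of the probes were well above background, and the median correlation of an array with the others lay between 0.961 and 0.980. All 7 ileum markers, among them the bile acid carrier FABP6 and the hormone FGF19, and 8 of 14 enterocyte markers passed the filter. The level of the ileum markers, however, was lower in some FFab and NF rabbits than in any FF rabbit. The mean of the 7 markers was 12.13 or more in FF at day 49 and 11.99 or more in FF at day 35. It was below every FF rabbit in 2 of 9 FFab and 1 of 9 NF rabbits at day 49, with lowest values of 9.71 and 8.72, and in 4 of 10 FFab and 3 of 9 NF rabbits at day 35, with lowest values of 8.92 and 9.40. Results are therefore also given without these 10 rabbits, a choice made after the data were seen. The limit was the lowest FF rabbit, so no FF rabbit could be left out by it. Some of the 10 lay close to it, with values up to 11.82. The markers also include FGF19 and NR0B2, which themselves fell with age in FF. Each probe has its own brightness, so levels are compared between groups and never between genes.

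In FF rabbits, given feces of unrelated does without antibiotics, 6 of the 7 genes were called as higher at 49 than at 35 days of age. Among them, CXCL11 passed the filter on dim signals only through the groups of day 49. A gene was called when its adjusted p was under 0.05 and its log2 fold change over 0.5 (limma, Benjamini-Hochberg over 8020 genes), which 2.82% of all genes reached in this direction. The median log2 fold change of the 7 genes was 1.60, against -0.01 over all genes. Of the 4 genes whose probes were named without the study's lists, 4 were called. The study had reported CCL4, CCL5 and CXCL10, and also CXCL9, CXCL11 and CXCR6, as up-regulated in FF from these same rabbits. The choice of these genes is therefore not independent of the result. In NF and FFab rabbits the 7 fold changes were also above 0, but none was called. Without the 10 rabbits low in ileum markers, 7 of 7 were called in FF, CXCL9 included (adjusted p = 0.0411), and none in NF or FFab. No FF rabbit was left out, so the fold changes in FF stayed the same and only the error estimate changed. Calls in FF rose over all genes too, to 428 of 8020 in either direction, against 226 higher and 119 lower with 56 arrays.

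CCL5, which attracts T cells and monocytes, had the smallest adjusted p of the 7 genes in FF. Its log2 signal ranged from 8.94 to 11.29 with a median of 9.55 in FF rabbits at day 49, against 5.45 to 10.31 with a median of 7.56 in FF rabbits at day 35. The 9 rabbits of day 49 all lay above 9 of the 10 rabbits of day 35, and the groups overlapped only through rabbit lap102 of day 35. The log2 fold change was 2.41 ± 0.57 (SE), a 5.33-fold higher level (95% interval 2.42 to 11.7; adjusted p = 0.0046, limma).

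CCL4, an inflammatory chemokine of the same family, had a smaller fold change. It ranged from 9.04 to 11.55 with a median of 9.78 in FF at day 49, against 8.34 to 10.38 with a median of 9.02 in FF at day 35. All 9 rabbits of day 49 were above the median of day 35, but only 2 were above its highest rabbit. It was higher by 1.03 ± 0.32 (SE) in log2 (adjusted p = 0.0363, limma), and the 5 probes gave 0.99 to 1.07, all called.

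The CXCR3 ligands varied more among rabbits of one group. CXCL10 ranged from 7.76 to 12.90 with a median of 9.91 in FF at day 49, against 6.89 to 10.65 with a median of 8.08 in FF at day 35. Most rabbits of day 49 lay inside the range of day 35, and 3 of 9 lay above it. Day 49 was higher by 1.89 ± 0.58 (SE) in log2 (adjusted p = 0.0310, limma), and the 5 probes gave 1.84 to 1.90, all called.

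CXCL11 was read by a dim probe. It ranged from 4.36 to 9.65 with a median of 7.17 in FF at day 49, against 2.55 to 7.62 with a median of 4.26 in FF at day 35. Its signal was well above background in 7 of 9 FF rabbits at day 49 and in 2 of 10 at day 35. The values of day 35 thus lie near the detection limit and the size of the change is uncertain. In FFab and NF it was above background in 7 of 9 and 9 of 9 rabbits at day 49, and in 6 of 10 and 6 of 9 at day 35. The gene thus passed the 75% filter only at day 49, and its call as higher at that age is not independent of the filter. The log2 fold change was 2.44 ± 0.76 (SE; adjusted p = 0.0346, limma). It was 1.17 with normexp background correction (adjusted p = 0.0661) and 1.43 with the median in place of the processed signal (adjusted p = 0.0541), and the gene was then not called.

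CXCL9 was the member that missed the threshold in FF, where the study reports it as up-regulated. It ranged from 6.99 to 10.01 with a median of 8.46 in FF at day 49, against 5.13 to 9.17 with a median of 7.02 in FF at day 35. The ranges overlapped, with 4 of 9 rabbits of day 49 above the highest of day 35. In log2 the difference was 1.60 ± 0.54 (SE; adjusted p = 0.0531, limma). In the deposited values CXCL9 was called.

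The receptors moved by smaller and more uniform amounts. CXCR6, the receptor of CXCL16, ranged from 8.12 to 9.24 with a median of 8.62 in FF at day 49, against 6.90 to 8.77 with a median of 7.74 in FF at day 35. All 9 rabbits of day 49 were above the median of day 35 and 4 were above its highest rabbit. It was higher at day 49 by 0.91 ± 0.28 (SE) in log2 (adjusted p = 0.0313, limma).

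XCR1, the receptor of cross-presenting dendritic cells, was the only one of the 7 genes whose ages did not overlap in FF. It ranged from 8.14 to 9.05 with a median of 8.46 in FF at day 49, against 6.82 to 8.08 with a median of 7.77 in FF at day 35. Every rabbit of day 49 was above every rabbit of day 35, which held for 26 of 8020 genes (0.324%). The log2 fold change was 0.85 ± 0.21 (SE), or 1.81-fold (95% interval 1.35 to 2.43; adjusted p = 0.0074, limma).

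**Figure D1:**
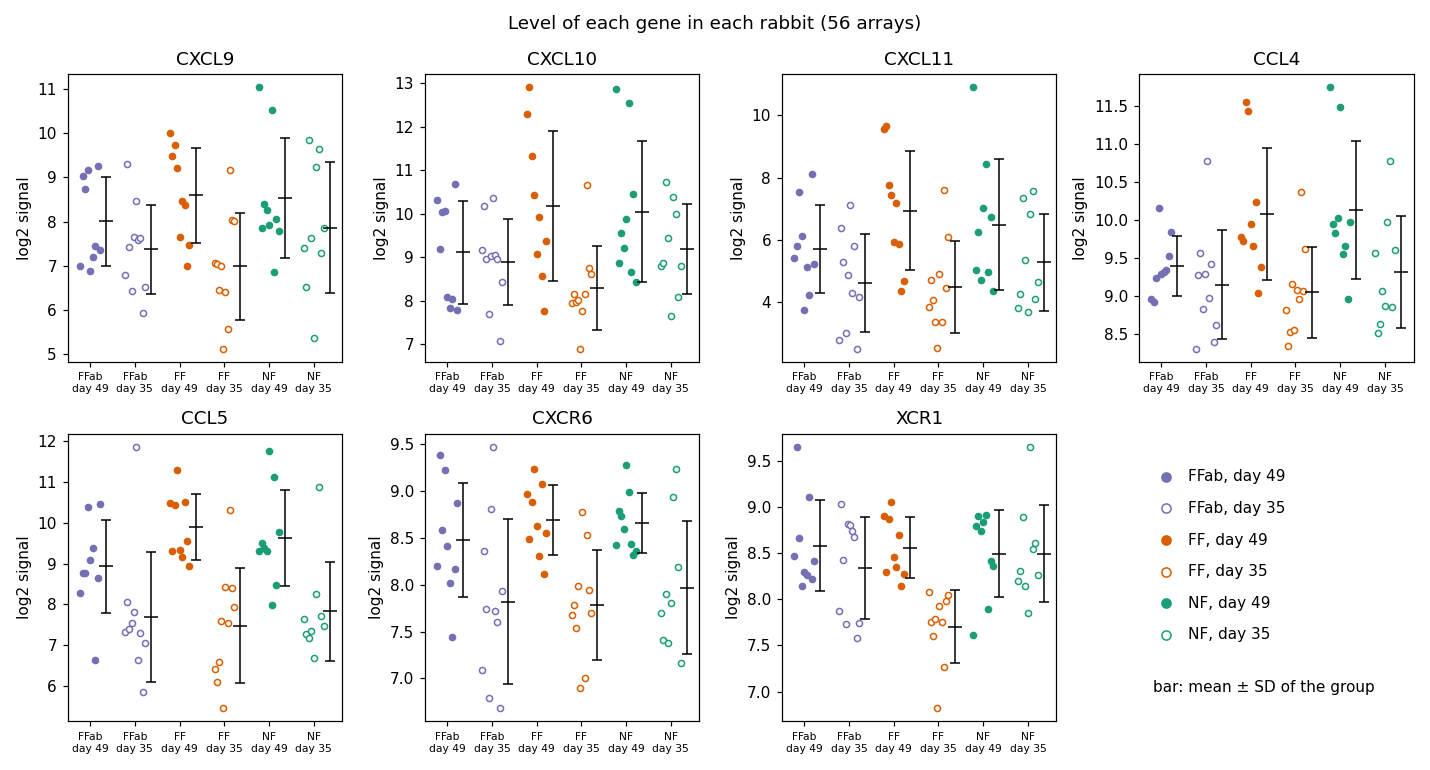
Log2 signal of the 7 genes in each of 56 rabbits (vertical axis, own scale per gene) by treatment and age (horizontal axis), with mean ± SD of each group. In FF the day 49 values of XCR1 (8.14 to 9.05) all lie above those of day 35 (6.82 to 8.08), while the other genes overlap.

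In NF rabbits, which received no feces, no member was called, and 0.0249% of all genes were called as higher at day 49. CCL5 ranged from 7.98 to 11.77 with a median of 9.38 in NF at day 49, against 6.68 to 10.89 with a median of 7.46 in NF at day 35. All 9 rabbits of day 49 were above the median of day 35, and the log2 fold change was 1.80 ± 0.58 (SE; adjusted p = 0.434, limma). XCR1 lay at 7.62 to 8.91 with a median of 8.73 in NF at day 49 and at 7.85 to 9.65 with a median of 8.30 in NF at day 35. The ranges overlapped, with 7 of 9 rabbits of day 49 above the median of day 35. Its log2 fold change was 0.00 ± 0.22 (SE), with a 95% interval from -0.43 to 0.44. The other 5 genes had log2 fold changes from 0.66 for CXCL9 to 1.20 for CXCL11. At an unadjusted p under 0.05 there were 3 of the 7 genes (CCL4, CCL5 and CXCR6) and 483 of 8020 genes.

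In FFab rabbits, which received feces of antibiotic-treated does, no member was called either, and 0.0748% of all genes were called as higher at day 49. CCL5 ranged from 6.64 to 10.46 with a median of 8.78 in FFab at day 49, against 5.86 to 11.87 with a median of 7.36 in FFab at day 35. The highest of all FFab values was rabbit lap108 of day 35, and 8 of 9 rabbits of day 49 were above the median of day 35. The log2 fold change was 1.25 ± 0.57 (SE; adjusted p = 0.535, limma). CXCR6 had a log2 fold change of 0.66 ± 0.28 (SE; adjusted p = 0.49, limma). CXCL11 and CXCL9 had 1.08 and 0.63, and CXCL10, XCR1 and CCL4 had 0.23, 0.24 and 0.25. For XCR1 3 of 9 rabbits of day 49 were above the median of day 35. At an unadjusted p under 0.05 there were 2 of the 7 genes (CCL5 and CXCR6) and 672 of 8020 genes.

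**Figure D2:**
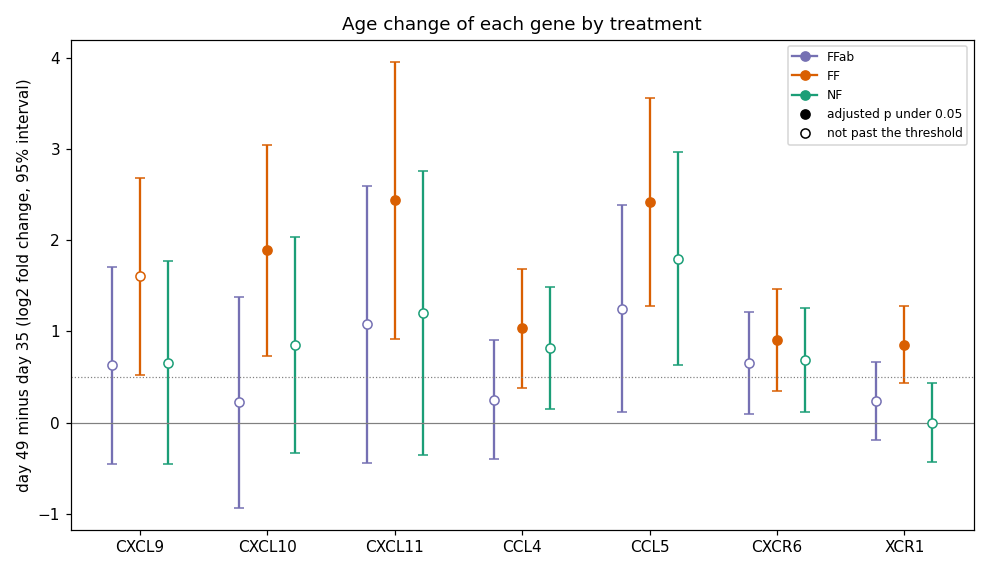
Log2 fold change of day 49 over day 35 of the 7 genes (vertical axis, with 95% interval) in FFab, FF and NF rabbits. Filled points are called; CCL5 in FF lies at 2.41, against 1.25 in FFab and 1.80 in NF, with intervals that overlap.

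The difference between these age changes was tested directly, and no gene of the 8020 passed in any of the 3 tests (0%). The age change in FFab minus that in FF was below 0 for all 7 genes. It was -1.66 ± 0.81 (SE) for CXCL10 and -0.62 ± 0.30 (SE) for XCR1, both with adjusted p = 0.9996 in limma and unadjusted p = 0.0460 and 0.0442. For CCL5 it was -1.16, with a 95% interval from -2.77 to 0.45. The age change in FF minus that in NF was 0.85 ± 0.30 (SE) for XCR1 (adjusted p = 0.851, limma, unadjusted p = 0.0068), and was not past an unadjusted p of 0.05 for the other 6 genes. For the age change in FFab minus that in NF no member had an unadjusted p under 0.05, against 74 of all genes. A call in FF together with none in NF and FFab is thus not shown to be a difference between treatments.

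Averaged over the treatments, 6 of the 7 genes were called as higher at day 49, against 2.37% of all genes. They include CXCL11, which passed the filter on dim signals only at day 49. CCL5 averaged 9.48 ± 1.1 in 27 rabbits at day 49 and 7.66 ± 1.38 in 29 rabbits at day 35 (SD). Its log2 fold change was 1.82 ± 0.33 (SE), with 26 of 27 rabbits of day 49 above the median of day 35. CXCL11 followed with 1.57 ± 0.44, CXCL10 with 0.99 ± 0.34 (adjusted p = 0.0386), CXCL9 with 0.96 ± 0.31 (adjusted p = 0.0303), CXCR6 with 0.75 ± 0.16 and CCL4 with 0.70 ± 0.19 (SE, limma). XCR1 had an adjusted p of 0.0377 but a log2 fold change of 0.37 ± 0.12 (SE), under the minimum of 0.5. Of the 4 genes whose probes were named without the study's lists, 3 were called, against 1.83% of all genes named so. Without NF rabbit lap84 of day 35, CXCL9 (adjusted p = 0.0514) and CXCL10 were not called. CXCL10 was also lost without any of 14 other rabbits, with adjusted p up to 0.0656. These were lap172, lap184, lap185 and lap202 of FFab, lap158, lap159 and lap180 of FF and lap170, lap206 and lap210 of NF at day 49, and lap106 and lap115 of FFab, lap89 of FF and lap113 of NF at day 35. Without the 10 rabbits low in ileum markers, CCL4, CCL5 and CXCR6 were called, and CXCL9 (0.83, adjusted p = 0.122), CXCL10 (0.85, adjusted p = 0.161) and CXCL11 (1.43, adjusted p = 0.0686) were not.

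Each slide held rabbits of all treatments and both ages, so the age change was also read within slides. In FF, XCR1 was higher at day 49 on 9 of 9 slides, CCL5, CXCL11 and CXCR6 on 8, and CXCL9, CXCL10 and CCL4 on 7. In NF, CCL5 and CXCR6 were higher at day 49 on 8 of 8 slides, CCL4 on 7, CXCL9 and CXCL11 on 6, and CXCL10 and XCR1 on 5. In FFab, CCL4 was higher on 7 of 9 slides, CCL5 and CXCR6 on 8, and the other 4 genes on 5. Averaged over the treatments, CCL5 was higher on all 9 slides and every other gene on 8.

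At a given age no member differed between treatments past the threshold. At day 35 none was called between FF and NF, where 0.0374% of all genes were called, between FFab and FF (0.0125%), or between FFab and NF (0%). The log2 difference at day 35 was below 0 for all 7 genes in FF minus NF, with a median of -0.79 against -0.00 over all genes, and above 0 for all 7 in FFab minus FF, with a median of 0.21. These comparisons share the FF rabbits of day 35 with each other and with the age change in FF. XCR1 had the smallest p. At day 35 it ranged from 7.58 to 9.03 with a median of 8.55 in FFab, from 6.82 to 8.08 with a median of 7.77 in FF, and from 7.85 to 9.65 with a median of 8.30 in NF. FF was below NF on all 8 slides that held both at this age, and FFab was above FF on 7 of 9. The log2 difference was -0.79 ± 0.21 (SE) for FF minus NF (adjusted p = 0.208, unadjusted p = 0.0005, limma) and 0.64 ± 0.21 (SE) for FFab minus FF (adjusted p = 0.388, unadjusted p = 0.0031, limma). Medians of tissue marker lists also lay away from 0 in these comparisons. The median log2 difference of the 7 ileum markers was 0.77 for FF minus NF and -1.07 for FFab minus FF, where 1 was called lower. It was -0.43 and 0.39 for the 7 smooth muscle markers and -0.36 and 0.29 for the 8 enterocyte markers, none called. Without the 10 rabbits low in ileum markers the differences of XCR1 were -0.61 (adjusted p = 0.272) and 0.48 (adjusted p = 0.508). The part of tissue makeup in them was not tested.

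At day 49 no gene of the 8020 was called between any pair of treatments (0%). XCR1 had medians of 8.41 in FFab, 8.46 in FF and 8.73 in NF. CCL4 ranged from 8.93 to 10.16 in FFab, from 9.04 to 11.55 in FF and from 8.96 to 11.75 in NF. Its log2 difference was -0.68 ± 0.33 (SE) for FFab minus FF and -0.73 ± 0.33 (SE) for FFab minus NF (unadjusted p = 0.0450 and 0.0324, both adjusted p = 1.0, limma). In the same comparisons the median of the 8 lymphoid follicle markers was -0.72 for FFab minus FF and -0.64 for FFab minus NF, and that of the 5 B cell markers -0.41 and -0.40, none called. The part of these cells in the level of CCL4 was not tested. The intervals of the 3 CXCR3 ligands and CCL5 ran past 1 in log2 on at least one side, so these data leave room for differences of that size.

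CCR9, the gut-homing receptor, gave almost no signal. Its probe was well above background in 1 of 9 FFab rabbits, 1 of 9 FF rabbits and 0 of 9 NF rabbits at day 49, and in 1 of 10 FFab, 0 of 10 FF and 0 of 9 NF rabbits at day 35. A single probe (chr9:14249893-14249952) near background does not show that the gene was silent.

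Some members varied together from rabbit to rabbit, once group means were taken off. Of 16 pairs of ligands and receptors listed, 7 had both genes measured, and all 7 correlated across the 56 rabbits (adjusted permutation p = 1e-05 for each Pearson r, the smallest that 100000 permutations give). The 3 CXCR3 ligands were closest, with r = 0.89 for CXCL10 and CXCL11 (rho = 0.85), 0.86 for CXCL9 and CXCL11 (rho = 0.84), and 0.84 for CXCL9 and CXCL10 (rho = 0.82). CCL4 and CCL5 had r = 0.71 (rho = 0.68). IFNG, the cytokine that induces the CXCR3 ligands, had r = 0.66, 0.71 and 0.72 with CXCL9, CXCL10 and CXCL11 (rho = 0.60, 0.66 and 0.68; adjusted permutation p of the rho for CXCL9 = 2e-05). Without the 2 rabbits farthest from the median of the first gene of a pair, r was 0.81, 0.84 and 0.87 among the ligands, 0.73 for CCL4 and CCL5, and 0.65 to 0.68 for IFNG. With slide means removed as well, the 7 values of r lay between 0.67 and 0.92. Within single groups r was as low as 0.15 for IFNG and CXCL9 and 0.48 for CCL4 and CCL5.

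Other pairs of members were not tested, and some are given as a description. CXCR6 had r = 0.71 with CCL5 and 0.55 with XCR1. XCR1 had r = 0.17 with CCL5 and 0.20 with CCL4, so their levels were only weakly related. CCL5 had r = 0.23 with CXCL10. CXCL9 had r = 0.52 with CCL4, 0.53 with CXCR6 and 0.44 with XCR1, and CXCL11 had 0.53 with CCL4.

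**Figure D3:**
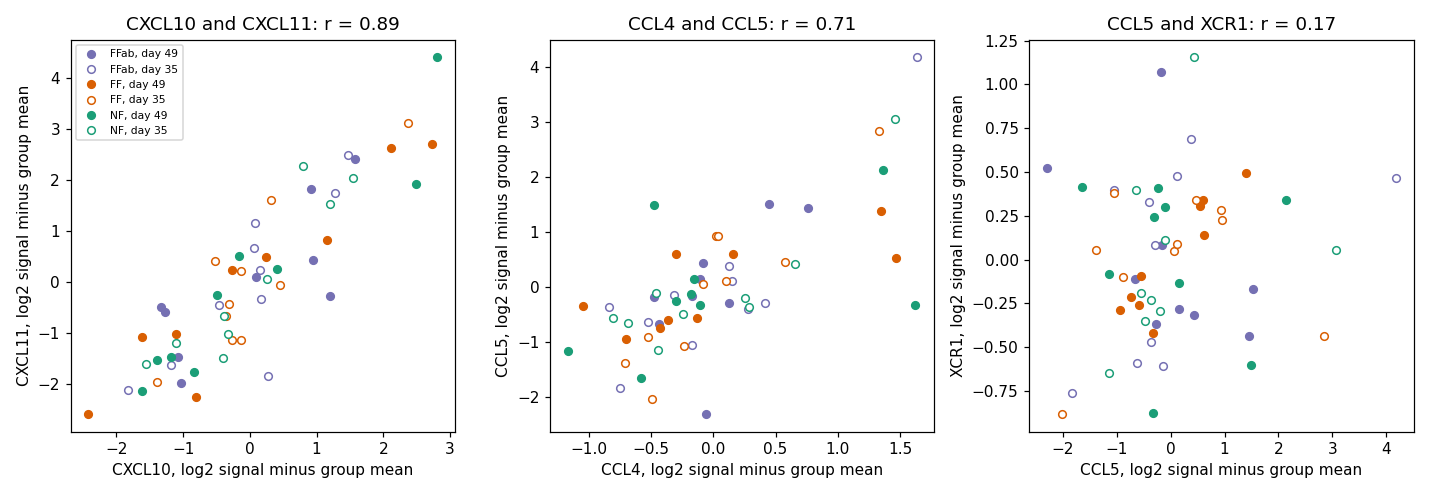
Deviation of each of 56 rabbits from its group mean in log2 signal, for CXCL11 against CXCL10, CCL5 against CCL4, and XCR1 against CCL5. The points rise together in the first pair (r = 0.89), less closely in the second (r = 0.71), and little in the third (r = 0.17).

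The genes closest to each member across the rabbits were found among 8019 genes by Pearson r of the group-centred values, as a description. The other CXCR3 ligands were among the first 3 for CXCL9, CXCL10 and CXCL11. IFNG ranked 22nd, 14th and 29th for CXCL9, CXCL10 and CXCL11. CCL4 was closest to LOC100348776, described in the files as CCL3-like (r = 0.83), whose probe lies 11.21 kb from those of CCL4 and shares no run over 9 bases with the CCL4 probe. CCL4 and CCL5 were also close to LOC100352439, described as granzyme H-like (r = 0.78 and 0.81). The other neighbours were PRF1, which encodes perforin, for CCL4 (r = 0.73), and FASLG, the Fas ligand, for CCL5 (r = 0.77). CXCR6 was closest to the lymphocyte receptor CD96 (r = 0.85), PRF1 (0.84) and the lymphocyte gene GPR171 (0.84). XCR1 was closest to a probe named CLEC1B in the study's lists (r = 0.83), then to ITM2C (0.72) and CD96 (0.67). The other 4 probes of CLEC1B were below the filter and had r between -0.23 and 0.09 with XCR1, so that name is uncertain.

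Genes of the same pathways were read from lists. The neighbours CD96, GPR171 and FASLG, like TNFRSF17, FGF19 and CA1 below, were named only through the study's lists of changed genes. Of the 5 other CC chemokine ligands measured (17 listed), none was called in FF, where CCL2 had 0.80 (adjusted p = 0.167) and CCL7 1.25 (adjusted p = 0.296) in log2, and CCL19 and CCL27 lay at 0.19 and -0.14. The 2 measured ligands of the CXC, XC and CX3C families, CXCL8, which draws neutrophils, and CXCL13, which draws B cells, were at -0.04 and -0.08. None of the 9 other chemokine receptors measured (19 listed) was called, with log2 fold changes from -0.47 for the scavenger receptor ACKR3 to 0.20 for CXCR5, the receptor of CXCL13. The medians of these 3 lists in FF were 0.19, -0.06 and -0.06, against 1.60 for the 7 members and -0.01 over all genes. Most members had been reported by the study as up-regulated in FF, and 3 were named only through its lists. No gene of these 3 lists was named in that way, so selection contributes to this contrast.

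The interferon gamma list held several genes that rose in FF. Of 16 measured, 7 were called as higher at day 49 in FF and none as lower, with a list median of 0.47 in log2. IFNG itself had a log2 fold change of 1.49 (adjusted p = 0.0348), IL18R1, a chain of the interleukin 18 receptor, 1.27, IRF1, a transcription factor induced by interferon, 0.98, IL18BP, which neutralises interleukin 18, 0.82, and IL18 0.57. DPP4, an enterocyte brush border peptidase that also trims CXCR3 ligands, was on the list too and rose by 0.83. IFNG was named through the study's lists of changed genes. Over the treatments 4 of the 16 were called, among them IFNG, IRF1 and IL18R1. None of the 16 was called in NF or FFab.

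Of the gut homing list, 2 of 13 genes were called as higher in FF, against 2.82% of all genes: ITGB7, a chain of the gut-homing integrin (0.56), and JAML, an adhesion molecule of intraepithelial T cells (0.53). Over the treatments GPR15, a receptor that guides T cells to the gut (0.63), and CRTAM, found on activated cytotoxic cells (0.69), were called. The integrin chain ITGAE, which holds lymphocytes in the epithelium, had 0.03 in FF.

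The ileum samples were whole tissue, in which more cells of a type and more RNA per cell cannot be told apart. None of 13 T cell markers was called in FF, where CD247, ZAP70, CD8A and CD8B had log2 fold changes of 0.64, 0.53, 0.37 and 0.30, and CD4 had 0.10. Over the treatments 1 of the 13, CD247 (0.54), was called as higher. Their mean level had medians of 7.21 in FFab, 7.25 in FF and 7.27 in NF at day 49, and of 6.94, 7.0 and 6.91 in FFab, FF and NF at day 35. Of 5 cytotoxic and NK markers measured (20 listed), FASLG (0.91) and PRF1 (1.03) were called in FF, and FASLG, PRF1 and CRTAM over the treatments. The mean of these 5 ranged from 6.98 to 7.68 in FF at day 49, against 5.93 to 7.11 in FF at day 35. No dendritic cell marker of 4 was called in FF. The study lists 1 of them, IDO1, an enzyme that degrades tryptophan, among its top up-regulated genes in FF. Here IDO1 was called over the treatments (3.15). The mean level of the 4 markers had medians of 8.72 in FFab, 9.02 in FF and 9.01 in NF at day 49. At day 35 the medians were 7.70, 8.21 and 8.07 in FFab, FF and NF. The part of these cells in the changes of the chemokines was not tested.

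Markers of other cell types were read in the same way. None of 5 B cell, 6 macrophage, 8 follicle and 7 smooth muscle markers was called in FF, although the mean of the B cell markers spread from 5.62 to 9.64 in FF at day 49 and from 5.45 to 10.35 in FF at day 35. Of 8 enterocyte markers ALPI (1.13), DPP4 and SLC5A1 (0.80) rose in FF, as did the plasma cell marker TNFRSF17 (0.95) and the fat markers FABP4 (1.71) and LPL (1.68). FGF19 (-3.96) and NR0B2 (-1.90) of the 7 ileum markers, and CA1 (-2.49) and EPOR (-2.22) of 6 red cell markers, fell. Their part in the results was not tested.

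The highest and lowest values often came from the same rabbits. Rabbit lap102 had the highest value of FF at day 35 for CXCL9, CXCL10, CXCL11, CCL4 and CCL5, and rabbit lap89 the lowest for all genes but CCL4. In FFab at day 35 rabbit lap108 was highest for 5 genes and rabbit lap115 lowest for 6. In FF at day 49 rabbit lap212 was lowest for 6 genes, while rabbits lap158, lap159, lap180 and lap181 shared the highest values. The mean of the cytotoxic markers was 7.10 in rabbit lap102 and 5.93 in rabbit lap89, in a group that ranged from 5.93 to 7.11. The level did not follow the extremes throughout. Rabbit lap88 of that group had 7.11 and was highest for none of the 7 genes. Rabbit lap212 had 7.09, in a group that ranged from 6.98 to 7.68. In NF at day 49 rabbit lap170 had the highest CXCL9, CXCL10, CXCL11 and CCL4 and the lowest XCR1.

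The count of called genes in FF depended on such rabbits. With each of the 56 arrays left out in turn, CCL5 and XCR1 were called every time, with adjusted p up to 0.0133 and 0.0192 in limma. The count over the 7 genes was 2, CCL5 and XCR1, without rabbit lap89 of day 35, rabbit lap180 of day 49 or rabbit lap181 of day 49, and 3 without rabbit lap101 of day 35. CXCL10 was lost without any of 5 rabbits (lap89 of day 35 and lap158, lap159, lap180 and lap181 of day 49), with adjusted p up to 0.0943. CXCR6 was lost without any of 5 (lap89 and lap101 of day 35 and lap180, lap181 and lap209 of day 49), up to 0.0681. CCL4 was lost without any of 8 (lap81, lap82, lap87, lap89 and lap101 of day 35 and lap180, lap181 and lap209 of day 49), up to 0.103. CXCL11 was lost without any of 9 (lap81, lap87, lap88, lap89 and lap101 of day 35 and lap158, lap159, lap180 and lap181 of day 49), up to 0.0917. All these were FF rabbits. CXCL9 was gained without any of 12 rabbits, 6 of them of FF (lap195, lap212 and lap213 of day 49 and lap102, lap103 and lap104 of day 35), 5 of NF (lap170 and lap206 of day 49 and lap80, lap84 and lap94 of day 35) and 1 of FFab (lap96 of day 35), with adjusted p down to 0.0217. When only the arrays of the 2 groups compared were fitted, CCL4 (adjusted p = 0.0523) and CXCL10 (0.0558) were not called. With slide as a fixed or a random block, with array weights or in the deposited values, CXCL9 was called (adjusted p from 0.0310 to 0.0393).

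**Figure D4:**
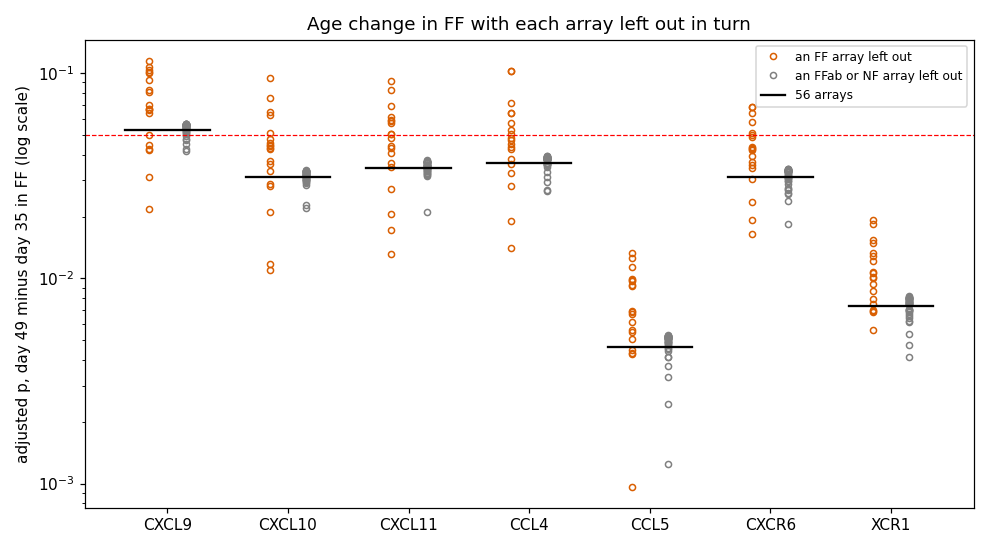
Adjusted p of the FF age change (vertical axis, log scale) of the 7 genes with each of the 56 arrays left out in turn; the dashed line is 0.05 and the bar the value with all arrays. CCL5 and XCR1 stay under the line in every case, at most at 0.0133 and 0.0192, while the other 5 genes cross it.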

How the data were processed

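Total RNA of 57 ground ileal samples, 1 per rabbit, was hybridised by the authors to single-colour Agilent arrays on 9 slides. The deposited scanner files hold Cy3 intensity per spot, read with Feature Extraction and background-subtracted (version 10.7.3.1 in the submitters' processing notes and 10.10.1.1 per the file headers). The deposited value table holds log2 intensity normalized by the authors for 33284 probes and was used as an alternative; its values correlated with those used here at a median r of 0.989 per array.

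Here the processed signals of each probe were averaged over its spots, without control spots, taken to log2 and quantile-normalized over 56 arrays (R 4.3.3, limma 3.58.1). Outlier-flagged spots were left out where the probe had an unflagged spot on the same array. NF rabbit lap78 of day 35 was removed, as the authors had done after finding it apart. Dim probes were left out: 31722 of 42089 remained, those with 50% or more of their spots well above background on 75% or more of any group's arrays. Probes were named by accession, gene identifier, gene name or the study's lists, 14847 kept probes had no single gene, and each gene was read from its probe of median level (8020 genes).

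Contrasts of 6 group means were tested with lmFit and eBayes, with Benjamini-Hochberg adjustment over 8020 genes and no covariates, as litter and sex are not in the labels. Replicates are separate rabbits. Correlations were tested with 100000 permutations (scipy 1.17.1). The code was tested on simulated data. The genes named are the members, the 3 genes closest to each and members of listed pathways and cell types. Some items are not reported here. Members and lists were chosen with earlier results of these data known. The number of arrays limits the precision. Alternatives covered background correction, normalization, filters, probe choice, slide, array weights, arrays low in ileum markers and each array left out.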

Additional observations from a re-analysis of the deposited data

Results flagged for a closer look

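In 4 of 42 sets of values (7 genes in 6 groups), the highest rabbit lay far from the nearest other rabbit of its group relative to the group's range. Chance flags about 1 in 20 such sets. CXCL10 was 10.65 in FF rabbit lap102 of day 35, with the next rabbit at 8.74. In FFab at day 35, rabbit lap108 had a CCL5 of 11.87 against 8.07 in the next rabbit, and a CCL4 of 10.78 against 9.56. CCL5 was 10.89 in NF rabbit lap94 of day 35, with the next rabbit at 8.26. The mean of the cytotoxic markers was 7.10 in rabbit lap102, 7.54 in rabbit lap108 and 7.57 in rabbit lap94, in groups that ranged from 5.93 to 7.11, from 6.13 to 7.63 and from 6.17 to 8.09. The part of these cells in the high values was not tested.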

How the results depend on the processing

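Over 15 alternatives other than leaving out an array, the number of members called stayed within 1.5 times its value in every contrast, except that it was 3 over the treatments without the 10 rabbits low in ileum markers. Of 1365 values, 7 calls were lost, 6 were gained, and 18 values that were not called changed sign. No called value changed sign. XCR1 was gained over the treatments when no minimum fold was asked. With each array left out in turn, the count in FF ranged from 2 to 7 and that over the treatments from 4 to 6, and it stayed at 0 in all other contrasts. The smallest count over the treatments, 4, came without NF rabbit lap84 of day 35. The cause was not tested. The 7 correlations kept their sign and threshold. The alternatives with outlier-flagged spots kept and without rabbits low in ileum markers were chosen after the data were seen. No paired analysis was possible because rabbit numbers are not shared between groups. CXCL11 was well above background in 37 of 56 rabbits, which limits its fold change, while the other 6 genes were above it in all 56.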
